A study of Macaca mulatta with 9 samples.

Results

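Ion channels, pumps and ion cotransporters move charged atoms across cell membranes, and 5 of their genes are described here in the prostate of rhesus monkeys (Macaca mulatta): TRPM4, KCNK1, CACNA1G, ATP2B3 and SLC12A3. They were found by gene symbol in a table that the authors deposited, which lists 1502 of the 20217 probes on the array and names 1334 genes. CACNA1G had 3 probes and each of the other 4 genes had 1, so the 5 genes had 7 probes, all of which were bright enough to be tested. The authors kept a probe where a 1-way analysis of variance over these same arrays gave a p of at most 0.05 and where at least 1 dose differed from vehicle by at least 1.5-fold. The 5 genes were thus selected on their signal on these arrays, in the comparisons of both doses with vehicle, and their values are given as a description with no test.

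The animals were offspring of dams that were given TCDD (2,3,7,8-tetrachlorodibenzo-p-dioxin, a persistent dioxin that activates the aryl hydrocarbon receptor) while pregnant and nursing. The vehicle group had 0 ng/kg, the low group 30 ng/kg and the high group 300 ng/kg, injected under the skin on gestation day 20. Each dam then had 5% of the first dose once every 30 days, the last time on day 90 after birth, and the offspring were necropsied 7 years after the exposure. Each group had 3 offspring, each with 1 prostate and 1 single-colour Agilent array, and the labels do not say which offspring shared a dam or a strain. The series asks how this exposure alters the adult gland.

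Salts and calcium are handled by proteins of several kinds in a secretory gland with a muscular wall. Channels let ions run down their gradients and so set the membrane voltage, pumps spend ATP to push ions uphill, and cotransporters tie the movement of one ion to that of another. Prostatic epithelium secretes a fluid rich in zinc, citrate and potassium, and the smooth muscle around it contracts when calcium enters the cytoplasm. The TRPM4 protein is a cation channel opened by intracellular calcium that lets sodium in and depolarises the cell. The KCNK1 protein, also called TWIK1, is a potassium channel that carries background current. The CACNA1G protein is the pore of the T-type calcium channel Cav3.1, which opens at voltages near rest. The ATP2B3 protein is a plasma membrane calcium pump best known from neurons, and the SLC12A3 protein is the thiazide-sensitive sodium-chloride cotransporter best known from the distal tubule of the kidney.

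The arrays differed in overall brightness, with the highest group mean at 300 ng/kg and the lowest at 30 ng/kg. The 75th percentile of the processed signal was 514, 1193 and 798 intensity units on vehicle replicates 1, 2 and 3, 343, 1356 and 363 at 30 ng/kg, and 1258, 1612 and 2374 at 300 ng/kg. Every value called scaled below, other than the sums over markers, is the log2 of a probe's signal over that percentile of its own array. A value of 0 thus equals the percentile, and no probe could read lower than the floor of -6.10. Slide 1 held vehicle replicates 1 and 2, slide 2 held vehicle replicate 3 with replicates 1 and 2 of 30 ng/kg, and slide 3 held replicate 3 of 30 ng/kg with all 3 arrays of 300 ng/kg. Vehicle and 300 ng/kg arrays never shared a slide, so that comparison has no value within 1 slide, and a fit with slide as a fixed block links the groups only through the 30 ng/kg arrays. In the same tissue the defining prostate genes KLK3 and MSMB were well above background on all 9 arrays, and the smooth muscle gene TPM2 was too. The array measured whole prostate, in which fewer cells of a type and less RNA per cell cannot be told apart.

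Over all 15160 tested probes, limma with Benjamini-Hochberg adjustment called 0 (0%) in each of the 3 comparisons, with a smallest adjusted p of 0.946 for 30 ng/kg against vehicle, 0.158 for 300 ng/kg against vehicle and 0.104 between the doses. Leaving out 1 array moved these counts to as many as 1 in the first, 271 in the second (without replicate 2 of 300 ng/kg) and 774 in the last, when replicate 2 of the low dose was dropped (155 when it was replicate 2 of the high dose). At an unadjusted p under 0.05 there were 766, 2357 and 3130 probes in that order. Another count asks only whether the 3 arrays of one group lay wholly above or wholly below the 3 of the other. Groups separate in this way made up 9.38% of tested probes at 30 ng/kg against vehicle, 22.7% at 300 ng/kg against vehicle and 25.6% between the doses. Among the tested probes of the authors' table, from which the 5 genes come, the shares were 26.8%, 82.0% and 79.5%. Of the 7 probes, 2 were separate at 30 ng/kg against vehicle, TRPM4 higher (as 4.93% of all tested probes were) and ATP2B3 lower (as 4.45% were). All 7 were separate at 300 ng/kg against vehicle, 4 of them higher (KCNK1 and the 3 probes of CACNA1G; 11.5% of all tested probes were higher) and 3 lower (11.2%). Between the doses the same 4 were separate and higher and the same 3 lower, where the shares of all tested probes were 11.2% and 14.4%. The choice of the genes used these contrasts, and nothing is read from those counts.

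**Figure D1:**
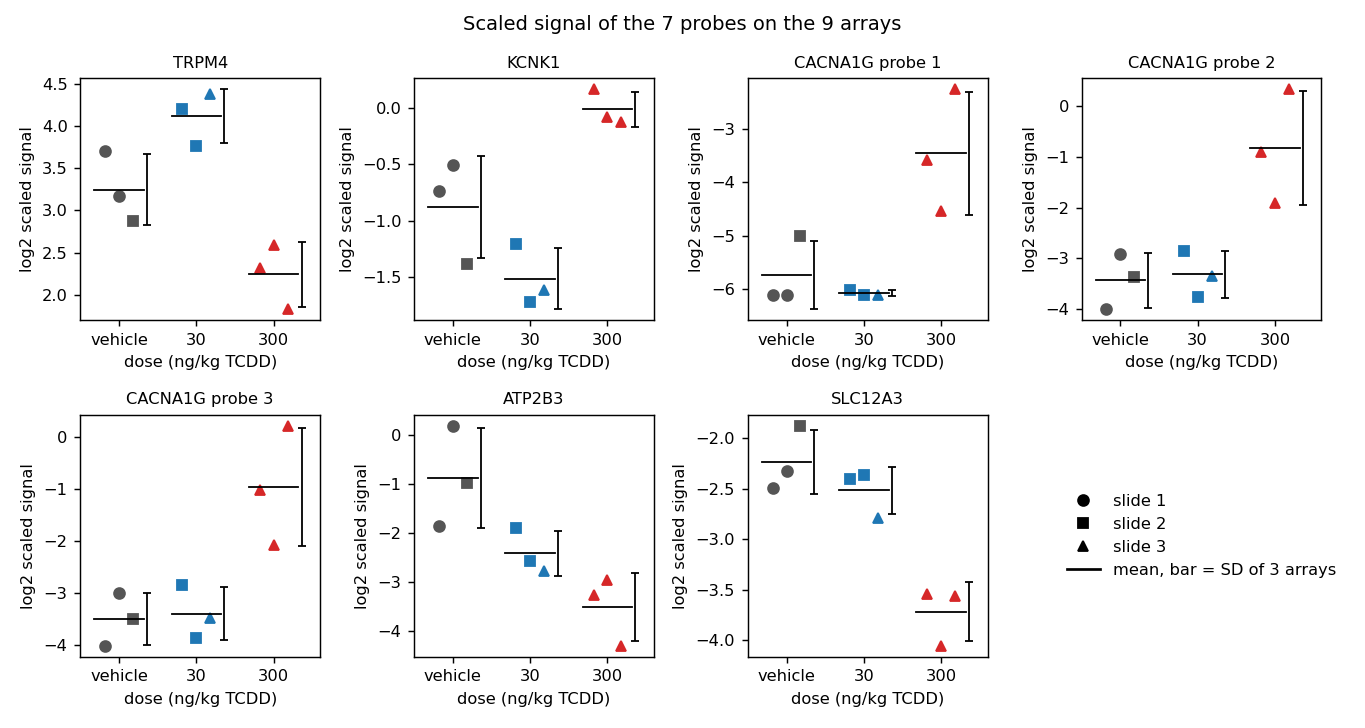
Scaled log2 signal (vertical axis, 0 = the 75th percentile of the array) of each of the 7 probes on the 9 arrays, by TCDD dose; the marker shape is the slide, the line is the group mean and the bar is the SD of 3 arrays. The CACNA1G probes and KCNK1 stood highest at 300 ng/kg, ATP2B3 and SLC12A3 stood lowest there, and TRPM4 stood highest at 30 ng/kg and lowest at 300 ng/kg; without scaling, TRPM4 at 300 ng/kg against vehicle and ATP2B3 and SLC12A3 between the doses lay on the other side of 0 (0.10, 0.52 and 0.41).

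TRPM4, the calcium-activated cation channel, was a bright probe, and its 3 dose groups formed separate bands out of dose order. Its scaled log2 signal was 3.70, 3.17 and 2.87 on the vehicle arrays, 4.20, 3.76 and 4.38 at 30 ng/kg, and 2.31, 2.58 and 1.83 at 300 ng/kg. Every 30 ng/kg array lay above every vehicle array, and every 300 ng/kg array lay below every vehicle array. The gap at the low dose was small, with 3.76 as its lowest array against 3.70 as the highest of vehicle. The group means were 3.25 ± 0.42 in vehicle, 4.11 ± 0.32 at the low dose and 2.24 ± 0.38 at the high dose (SD, n = 3). The log2 difference from vehicle was 0.87 ± 0.31 at 30 ng/kg (limma's SE, 3 arrays per group), or 1.83-fold, and -1.00 ± 0.31 at 300 ng/kg. From 30 to 300 ng/kg the scaled signal stood -1.87 ± 0.31 apart, or 3.66-fold lower. Within slide 2, where 1 vehicle array sits with 2 of the low dose, the difference was 1.11, and within slide 3, where 1 array of the low dose sits with 3 of the high dose, it was -2.14.

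The lower scaled value of TRPM4 at 300 ng/kg was not seen in the signal before scaling. The processed signal was 6684, 10724 and 5833 intensity units in vehicle, 6313, 18412 and 7555 at the low dose and 6251, 9674 and 8445 at the high dose. The 300 ng/kg values lay inside the vehicle range, and the unscaled log2 difference was 0.10, while the median of all tested probes stood 1.10 higher at that dose. At 30 ng/kg replicates 1 and 3 also lay inside the vehicle range, and the unscaled log2 difference was 0.36. With normexp, another background correction, the low-dose difference was 0.63, or 0.34 relative to the shift of 0.29 in the median of all probes. With brightness as a covariate in the fit, an alternative chosen after seeing the data, the difference of 300 ng/kg from vehicle was -0.63.

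KCNK1, the potassium channel, was dimmer than the 75th percentile on most arrays and reached it at 300 ng/kg. The scaled log2 signal was -0.74, -0.51 and -1.39 in vehicle, -1.21, -1.73 and -1.61 at the low dose and 0.17, -0.08 and -0.12 at the high dose. The 300 ng/kg arrays lay close together and above all the others, whereas 1 vehicle array, replicate 3, lay among those of 30 ng/kg. The log2 difference from vehicle was -0.64 ± 0.28 at 30 ng/kg, with overlapping groups, and 0.87 ± 0.28 at 300 ng/kg, or 1.82-fold (limma's SE, 3 arrays per group). Between the doses it was 1.51 ± 0.28, or 2.84-fold. The unscaled signal kept both directions at the high dose: it was 308, 839 and 305 units in vehicle, 148, 410 and 119 at the low dose and 1412, 1528 and 2178 at the high dose. Most probes read higher there without scaling: the median of all tested probes stood at 1.10 from vehicle and 1.58 from the low dose. The unscaled differences of KCNK1 were 1.97 and 3.12. Within slide 2 the difference at 30 ng/kg was -0.08, and the single vehicle array on that slide stood at -0.76 from the mean of the pair on slide 1. Animal and slide cannot be told apart for that array. Within slide 3 the difference between the doses was 1.60, and with slide as a fixed block the difference of 300 ng/kg from vehicle was 1.52.

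**Figure D2:**
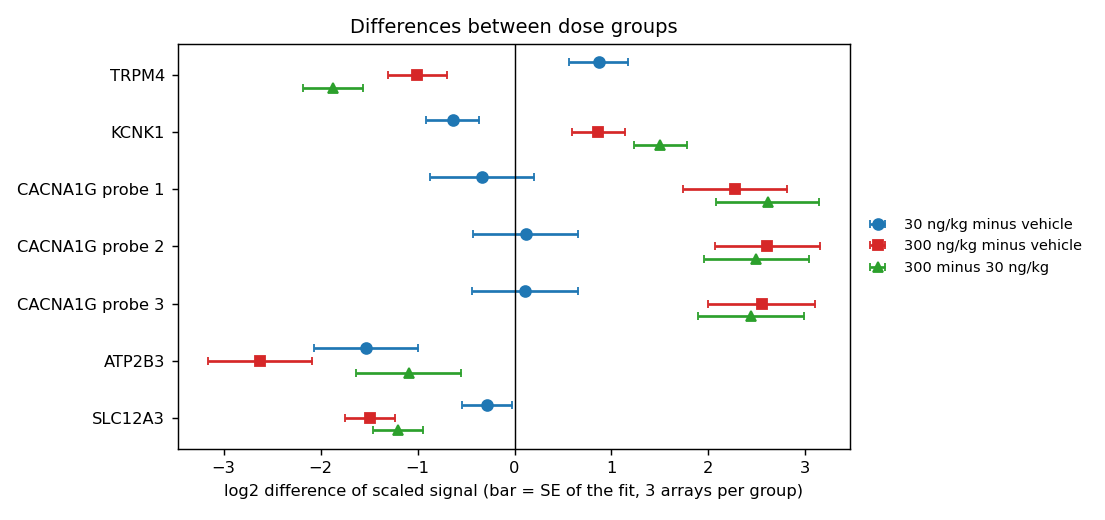
Log2 difference of scaled signal (horizontal axis) between dose groups for each of the 7 probes; points are differences of group means and bars are the limma's SE, with 3 arrays per group. The 300 ng/kg differences from vehicle ran from -2.62 for ATP2B3 to 2.61 for probe 2 of CACNA1G, and only TRPM4 and KCNK1 had low-dose and high-dose differences on opposite sides of 0 with each larger than its SE.

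CACNA1G, the T-type calcium channel, was dim in vehicle and at the low dose and stood well above both at the high dose on all 3 of its probes. Probe 2 (A_01_P004897), described as matching transcript variant 1, read -4.00, -2.92 and -3.37 in vehicle, -2.85, -3.76 and -3.34 at the low dose and -0.90, -1.91 and 0.33 at the high dose. Probe 3 (A_01_P010933) carries the same description and read -4.02, -3.01 and -3.49 in vehicle, -2.85, -3.87 and -3.47 at the low dose and -1.02, -2.07 and 0.22 at the high dose. The vehicle and low-dose arrays were mixed, and all 3 high-dose arrays lay above them on both probes. Both probes are assigned to the same transcript, so they are not independent measures.

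At 300 ng/kg, probes 2 and 3 of CACNA1G stood 2.61 ± 0.54 and 2.55 ± 0.55 above vehicle on the log2 scale (limma's SE, 3 arrays per group), which is 6.09-fold and 5.85-fold. With normexp, another background correction, these log2 differences were 1.80 and 1.71. The low-dose differences of these probes were 0.11 each, well inside their SE, and turned to -0.40 each without scaling, where the median of all probes stood at -0.49. Within slide 3 the difference between the doses was 2.51 on probe 2 and 2.52 on probe 3 (the single array of 30 ng/kg against the 3 of 300 ng/kg). The high-dose animals themselves spanned 2.24 log2 units on probe 2, with replicate 3 highest and replicate 2 lowest on all 3 probes. Leaving out 1 array at a time kept probe 2 between 2.03 and 3.15 above vehicle and probe 3 between 1.96 and 3.10, lowest without replicate 3 of 300 ng/kg.

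Probe 1 of CACNA1G (A_01_P004558), described as matching transcript variant 3, was close to the limit of the assay. It was well above background on 1 vehicle array, on none of 30 ng/kg and on all 3 of 300 ng/kg. Its scaled log2 signal was -6.10, -6.10 and -5.00 in vehicle, -6.01, -6.10 and -6.10 at the low dose and -3.58, -4.54 and -2.26 at the high dose, where -6.10 is the floor. Against 30 ng/kg the high dose was at least 3.26-fold higher, a bound set by the lowest signal among probes well above background on each array of 30 ng/kg. The difference of 2.27 ± 0.53 from vehicle is likewise limited by the floor, and it was 0.53 with normexp and 1.58 with slide as a fixed block. The low-dose difference of probe 1, -0.34, was -1.06 with that block and turned to 0.79 with normexp. With normexp the median over all probes moved by -0.52 between the doses, and probe 1 turned to -0.26 between the doses, or 0.26 relative to that shift, while probes 2 and 3 stayed above 0 at 1.26 and 1.17.

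ATP2B3, the plasma membrane calcium pump, was lower at each dose, with the 3 groups in dose order. Its scaled log2 signal was -1.86, 0.17 and -0.98 in vehicle, -1.90, -2.58 and -2.77 at the low dose and -3.27, -2.96 and -4.30 at the high dose. The groups did not overlap, but the gap between the lowest vehicle array and the highest of 30 ng/kg was small, and the vehicle animals were widely spread (mean -0.89 ± 1.02, SD, n = 3). The log2 difference from vehicle was -1.53 ± 0.54 at 30 ng/kg, or 2.89-fold lower, and -2.62 ± 0.54 at 300 ng/kg, or 6.16-fold lower (limma's SE, 3 arrays per group). Without vehicle replicate 2, the highest array, the low-dose difference was -1.00. The single-slide value at 30 ng/kg was -1.26, and with normexp it was -0.80. With slide as a fixed block the difference of 300 ng/kg from vehicle was -2.00.

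The order of the exposed groups on ATP2B3 depended on the scaling. The processed signal was 141, 1345 and 406 units in vehicle, 92, 227 and 53 at the low dose and 131, 207 and 120 at the high dose. Both exposed groups stayed below the vehicle mean before scaling, with unscaled log2 differences of -2.04 and -1.52, although their ranges then reached into the vehicle range. Between the doses the difference was -1.09 ± 0.54 scaled (limma's SE, 3 arrays per group) and 0.52 unscaled. Without replicate 3 of 300 ng/kg the scaled value between the doses was -0.70.

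SLC12A3, the sodium-chloride cotransporter, was lower at 300 ng/kg on all 3 arrays and close to vehicle at 30 ng/kg. Its scaled log2 signal was -2.49, -2.33 and -1.88 in vehicle, -2.40, -2.36 and -2.79 at the low dose and -3.54, -4.06 and -3.56 at the high dose. The 300 ng/kg arrays formed a band of their own below the other 6. The log2 difference from vehicle was -0.28 ± 0.26 at 30 ng/kg, where the groups overlapped, and -1.49 ± 0.26 at 300 ng/kg, or 2.80-fold lower (limma's SE, 3 arrays per group). Between the doses it was -1.20 ± 0.26. The low-dose difference was -0.50 within slide 2, -0.11 without vehicle replicate 3 and -0.15 without replicate 3 of 30 ng/kg. With normexp it turned to 0.24, which is -0.06 relative to the shift of 0.29 in the median of all probes.

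As with TRPM4, the processed signal of SLC12A3 overlapped between the groups before scaling: it was 91, 237 and 217 units in vehicle, 65, 264 and 53 at the low dose and 108, 97 and 201 at the high dose. Its unscaled log2 difference from vehicle was -0.39 at 300 ng/kg, and between the doses it was 0.41, the opposite side from the scaled value. The list of kidney distal tubule markers, where this cotransporter is best known, had no named gene in the authors' table, so it was not analysed here.

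**Figure D3:**
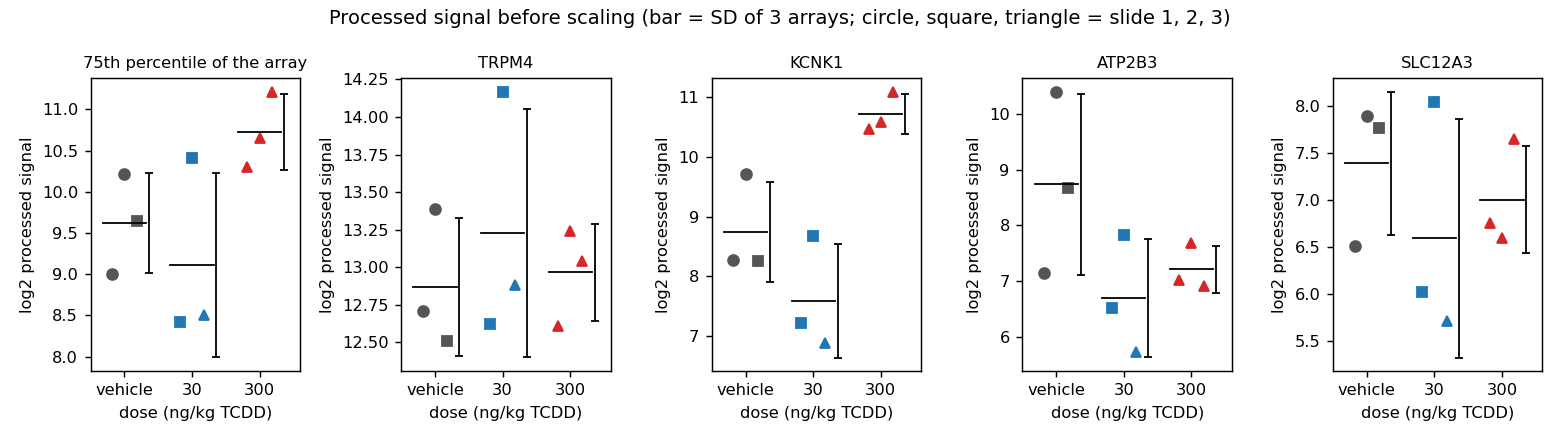
Log2 of the processed signal before scaling (vertical axis, intensity units) by TCDD dose: the 75th percentile of the array at left, then TRPM4, KCNK1, ATP2B3 and SLC12A3; markers are arrays, lines are group means and bars are the SD of 3 arrays. The percentile ran from 1258 to 2374 units at 300 ng/kg and from 514 to 1193 in vehicle, while TRPM4 ran from 6251 to 9674 units and SLC12A3 from 97 to 201 at 300 ng/kg, both inside the vehicle range.

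The authors' deposited table gave folds of the same direction for each probe and dose as the values above. In it TRPM4 was 1.82-fold up at 30 ng/kg and 2.00-fold down at 300 ng/kg, and KCNK1 was 1.56-fold down and 1.82-fold up. The authors' deposited table has ATP2B3 at 2.89-fold and 6.15-fold down, SLC12A3 at 1.22-fold and 2.80-fold down, and the CACNA1G probes at 5.56-fold to 6.10-fold up at 300 ng/kg. Among named ion transport genes, the nearest to the table's limit of 1.5-fold was SLC39A3 with a larger fold of 1.51. KCNAB1 and KCNH8 came next with 1.57 each. Probes that fell short of the limit are not in that table and carry no name here. KCNK1 had the smallest larger fold of the 5 genes, 1.82, and ATP2B3 the largest, 6.15.

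Several epithelial genes were also higher at 300 ng/kg and also spread widely among the 3 animals of that dose. Of the 6 listed markers of hillock and stratified epithelium, 2 were named and tested, the keratin KRT13 and the retinoic acid carrier CRABP2. At 300 ng/kg CRABP2 read 2.16, -3.47 and 1.52 against -4.10, -4.68 and -3.94 in vehicle, and KRT13 read -4.13, -3.39 and -1.20 against -6.10, -6.10 and -4.86. Sums over markers, here and below, add scaled signals on the linear scale, before log2 was taken. The summed scaled signal of both was 0.05 to 0.10 in vehicle, 0.05 to 0.10 at the low dose and 0.19 to 4.54 at the high dose. Replicate 2 was the lowest of the high dose. CACNA1G and CRABP2 were lowest in replicate 2, whereas KRT13 was lowest in replicate 1; CACNA1G and KRT13 were highest in replicate 3, and CRABP2 in replicate 1. TMEM16A, the older symbol of the calcium-activated chloride channel ANO1, read -1.02, -3.74 and -2.57 at 300 ng/kg against -4.37, -4.34 and -5.05 in vehicle, with replicate 2 lowest and replicate 1 highest. The part of these cell types in the CACNA1G values was not tested.

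**Figure D4:**
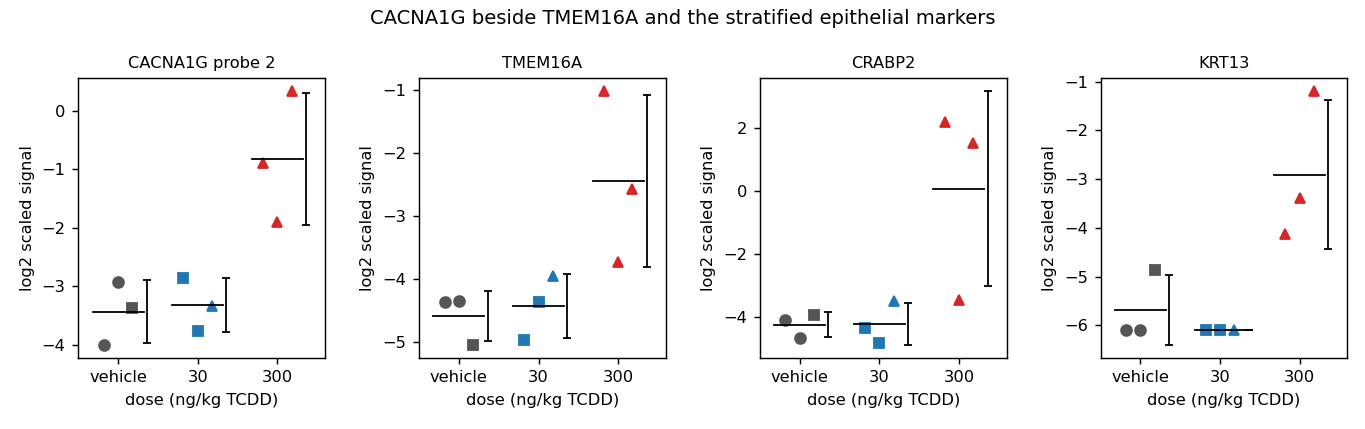
Scaled log2 signal (vertical axis) of CACNA1G probe 2, TMEM16A, CRABP2 and KRT13 on the 9 arrays by TCDD dose; marker shapes are slides (circle 1, square 2, triangle 3), lines are group means and bars are the SD of 3 arrays. In the first 3 panels the lowest 300 ng/kg array is replicate 2, at -1.91, -3.74 and -3.47, and all 3 arrays of that dose lie above every vehicle array.

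Sums of other marker lists also differed between vehicle and 300 ng/kg, except for the basal list and the endothelial marker PECAM1, whose groups overlapped. All 3 tested smooth muscle markers of 12 listed (LMOD1, SGCA, TPM2) were below vehicle at 300 ng/kg, and their summed scaled signal was 224 to 341 in vehicle, 244 to 451 at the low dose and 117 to 199 at the high dose. The 3 nerve and neuroendocrine markers (LSAMP, NCAM1, NTS, of 11 listed) summed to 10.2 to 22.6 in vehicle, 3.78 to 10.6 at the low dose and 1.71 to 3.82 at the high dose, with vehicle replicate 2 the highest array. That sum was mostly NTS, which stood at -1.48 and -2.59 from vehicle at 30 and 300 ng/kg. LSAMP stood at -0.83 and -0.80 and was not highest in vehicle replicate 2 (-1.29), and NCAM1 stood at 0.84 and -0.08. The 3 luminal secretory markers of 13 listed (KLK3, MSMB and TGM4, where 1 KLK3 probe is saturated) summed to 626 to 950 in vehicle, 613 to 1956 at the low dose and 406 to 484 at the high dose. Within that sum TGM4, a prostate transglutaminase, went the other way: it read -3.89, -4.55 and -2.54 in vehicle, -3.17, -1.08 and -3.61 at the low dose and 6.81, 1.42 and 7.41 at the high dose, where KLK3 and MSMB stood at -1.18 and -0.73 from vehicle. The luminal sum was mostly the brighter KLK3 probe, which also gave the -1.18. Before scaling that probe read 469115, 627507 and 530799 units in vehicle and 630297, 669937 and 618870 at the low dose. At the high dose it read 333061, 618345 and 643681 units, which overlapped with vehicle. Its log2 difference from vehicle at that dose was -0.08 without scaling. The dimmer KLK3 probe stood at -1.47 from vehicle at 300 ng/kg with separate groups, and at -0.37 without scaling. CTSS, FCER1A and XBP1, of 12 genes listed as immune markers, summed to 2.27 to 2.59, 2.25 to 4.16 and 5.06 to 7.58. This sum was made up almost wholly of XBP1 and thus says little of the other genes in it. CTSS and FCER1A were dim: in vehicle they read -4.50, -4.64 and -4.31 and, near the floor, -6.10, -5.68 and -5.44. At the high dose CTSS read -3.87, -3.83 and -3.69, and FCER1A read -2.78, -4.51 and -3.49. The basal pair ITGB4 and S100A2, of 9 listed, summed to 4.53 to 6.96, 7.72 to 10.3 and 5.96 to 6.35, a sum made up mostly of ITGB4. Between the doses ITGB4 stood at -0.52 (1.10 without scaling) and S100A2 at 2.24 (-0.34 with normexp), and at 30 ng/kg against vehicle at 0.72 and -0.69 (0.66 for S100A2 with normexp). The endothelial marker PECAM1, of 7 listed, stood at 0.92 to 1.22, 2.19 to 3.04 and 0.68 to 1.28 on the linear scale of the sums. The 6 fibroblast markers of 11 listed summed to 65.2 to 156, 73.3 to 152 and 46.8 to 59.1, a sum dominated by COL6A2, which stood at -1.61 from vehicle at 300 ng/kg. The other 5 fibroblast markers stood above vehicle there, 4 of them with separate groups, and COL1A1 stood at 1.54. The part of any of these cell types in the values of the 5 genes was not tested. LMOD1, TPM2, MSMB, LSAMP and NCAM1 lay above vehicle at 300 ng/kg without scaling (0.29, 0.37, 0.37, 0.30 and 1.02), where the median of all probes stood at 1.10.

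The wider set of ion transport genes held 404 listed genes in 10 families, of which 33 had a named probe and 27 had a tested one. The names come only from the authors' table, so genes with little difference between doses could not appear. Leaving out the 5 genes, 22 were tested: at 300 ng/kg against vehicle 9 stood above 0 and 13 below, 8 and 10 of them with separate groups (82.0% of the tested probes of the authors' table were separate), and the median log2 difference was -0.50 against -0.01 over all tested probes and -0.26 over those of the authors' table. At 30 ng/kg 15 stood above 0 and 6 below, with 3 and 2 separate (1 of them ITPR2, which was not well above background in either group; 26.8% were separate in that table) and a median of 0.20 against 0.02 and 0.19. Between the doses 10 stood above and 12 below, with 5 and 11 separate (79.5% in that table) and a median of -0.69 against -0.03 and -0.48. With normexp 6 of 22 stood above 0 at 300 ng/kg, or 8 relative to its shift of -0.22, and with no scaling 15 did, or 9 relative to its shift of 1.10. The last count returns to that of the scaled values by construction, since taking off that shift nearly restores the scaling.

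The other 2 tested TRP channels lay below vehicle at the high dose, as TRPM4 did. TRPV6, an epithelial calcium channel known from the prostate, read 2.75, 2.97 and 2.38 in vehicle, 3.26, 2.93 and 4.22 at the low dose and 1.56, 0.75 and 1.97 at the high dose. It stood -1.27 ± 0.41 from vehicle at 300 ng/kg (log2 ± limma's SE, 3 arrays per group), and it shared with TRPM4 the highest mean at 30 ng/kg. TRPC6, a receptor-operated cation channel of smooth muscle, stood at -1.44 ± 0.40, so all 3 tested channels of the TRP family lay below vehicle with separate groups, where 11.2% of all tested probes were lower and separate and 82.0% of those of the authors' table were separate in either direction. Before scaling, TRPV6 and TRPC6 stood at -0.17 and -0.34, and TRPM4 at 0.10.

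Among 4 tested genes of voltage-gated calcium channels, CACNA1G lay above vehicle at 300 ng/kg and the other 3 lay below it. CACNA1B, the pore of the N-type channel, stood at -1.73 ± 0.46 at 300 ng/kg, and CACNA1H, the T-type pore Cav3.2 and nearest relative of CACNA1G in the list, stood at -1.16 ± 0.36 (log2 ± limma's SE, 3 arrays per group). CACNA1H read 2.81, 2.29 and 2.13 in vehicle, 2.90, 2.09 and 2.71 at the low dose and 1.40, 1.77 and 0.58 at the high dose. On the scaled values the animal with the highest CACNA1G at 300 ng/kg, replicate 3, thus had the lowest CACNA1H and CACNA1B (1.88). Its array was also the brightest. Before scaling replicate 3 was still the lowest of that dose for CACNA1B (11289, 12783 and 8725 units). For CACNA1H replicate 1 was then the lowest (3324, 5480 and 3554 units). The accessory subunit CACNA2D3 stood at -1.58 ± 0.46, with overlapping groups. Without scaling CACNA1H and CACNA1B stood at -0.06 and -0.63, against 3.71 for probe 2 of CACNA1G. Their order is the same either way by construction, since leaving out the scaling moves all 3 differences by the same amount.

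**Figure D5:**
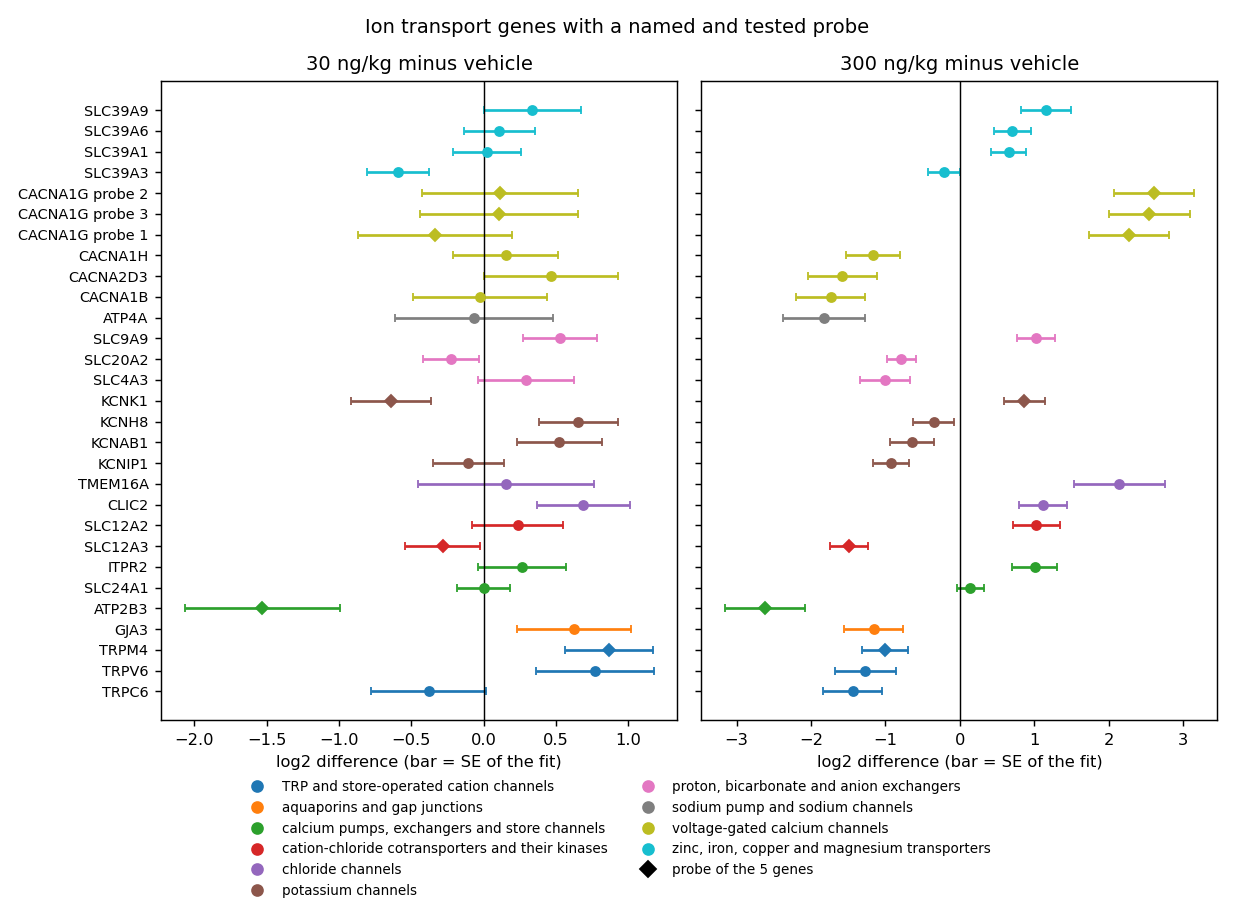
Log2 difference of scaled signal from vehicle (horizontal axes, which differ in range) at 30 ng/kg (left) and 300 ng/kg (right) for the ion transport genes with a named and tested probe, coloured by family; diamonds are probes of the 5 genes and bars are the limma's SE (3 arrays per group). At 300 ng/kg the CACNA1G probes and TMEM16A lay farthest to the right, at 2.61, 2.55, 2.27 and 2.14, and ATP2B3 farthest to the left, at -2.62.

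Of 4 tested potassium channel genes, KCNK1 lay above vehicle at 300 ng/kg and the other 3 had means below it. The KCNH8 arrays of that dose overlapped with vehicle. At 300 ng/kg the beta subunit KCNAB1 stood at -0.65 ± 0.30 from vehicle, the voltage-gated channel KCNH8 at -0.35 ± 0.27 and the channel-interacting protein KCNIP1 at -0.92 ± 0.25 (log2 ± limma's SE, 3 arrays per group). Without scaling these 3 stood at 0.45, 0.75 and 0.18, and KCNK1 at 1.97, so the side of the others turned. For probes above the floor, leaving out the scaling moves all differences of a comparison by the same amount. The order of the 4 genes could therefore not change. KCNF1, KCNK10 and KCNMB3 were named but too dim to be tested, as were SCN2B, SCN8A and SLC26A7.

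SLC12A2, the sodium-potassium-chloride cotransporter NKCC1 that loads chloride into secretory cells, lay opposite to SLC12A3, its relative in the same family. It read -4.56, -4.60 and -4.51 in vehicle, -4.97, -4.09 and -3.90 at the low dose and -3.30, -3.97 and -3.32 at the high dose. The difference at 300 ng/kg was 1.03 ± 0.32 (log2 ± limma's SE, 3 arrays per group), 2.13 without scaling and 0.04 with normexp, or 0.26 relative to the normexp shift. Both tested chloride channel genes were above vehicle at 300 ng/kg, TMEM16A at 2.14 ± 0.61 and CLIC2 at 1.11 ± 0.32. These 2 stayed above 0 with every scaling.

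Of the other pumps and calcium stores, ATP4A, which encodes the catalytic chain of the gastric proton-potassium pump, read 5.91, 4.95 and 6.52 in vehicle, 6.35, 5.03 and 5.81 at the low dose and 4.43, 4.52 and 2.96 at the high dose. It stood at -1.83 ± 0.55 (log2 ± limma's SE, 3 arrays per group). ITPR2, a calcium release channel of the endoplasmic reticulum, was at least 1.57-fold higher at 300 ng/kg, where no vehicle array was well above background, and it turned to -0.39 with normexp, or -0.17 relative to its shift. SLC24A1, a sodium-calcium-potassium exchanger, lay at the floor on all vehicle and 30 ng/kg arrays and no size is given for it. The gap junction gene GJA3 stood at -1.16 ± 0.40, and at -0.06 without scaling. Before scaling ATP4A read 30942, 36905 and 73453 units in vehicle and 27043, 37029 and 18470 at 300 ng/kg, with overlapping groups.

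Exchangers and metal transporters went both ways. At 300 ng/kg the sodium-proton exchanger SLC9A9 stood at 1.02 ± 0.25, the anion exchanger SLC4A3 at -1.00 ± 0.33 and the phosphate transporter SLC20A2 at -0.79 ± 0.19 (log2 ± limma's SE, 3 arrays per group). Of the 4 tested zinc transporters of the SLC39 family, SLC39A1, SLC39A6 and SLC39A9 stood at 0.65 ± 0.23, 0.71 ± 0.24 and 1.16 ± 0.34 above vehicle, and SLC39A3 at -0.21 ± 0.21. Between the doses all 4 stood higher at 300 ng/kg with separate groups, from 0.39 to 0.82, where 11.2% of all tested probes were higher and separate and 79.5% of those of the authors' table were separate in either direction. With normexp SLC39A6 and SLC39A9 turned to -0.43 and -0.99 between the doses, or 0.09 and -0.47 relative to its shift. Without scaling, SLC4A3, SLC20A2 and SLC39A3 stood at 0.10, 0.31 and 0.89 from vehicle at 300 ng/kg.

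The named genes whose scaled signal was most like that of each probe over the 9 arrays were found among 1192 genes, and the correlations are given as descriptions: the arrays share the dose groups and the brightness on which the genes were chosen. For TRPM4 they were LAMB2, a basement membrane laminin (Pearson r 0.974, 0.953 within groups), KIAA1811 (0.972) and C20orf151 (0.970). For KCNK1 they were FUBP1, a single-strand DNA-binding regulator (0.951), Gpx-1, a glutathione peroxidase (0.923), and RPP40, a subunit of ribonuclease P (0.913). For probe 1 of CACNA1G they were GRHL3, a transcription factor of stratified epithelium (0.985, 0.938 within groups), FLJ41287 (0.977) and the annexin ANXA8 (0.971). For probes 2 and 3 they were MGC4767, LOC441507, the stress-response factor ATF6 (probe 2 only) and the BMP antagonist GREM1 (probe 3 only), at 0.968 to 0.973.

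For ATP2B3 the most similar genes were MGC3162 (Pearson r 0.930 over 9 arrays, 0.741 within groups), RNF26 (0.923) and the kinase MAP2K3 (0.920). For SLC12A3 they were the neuronal membrane protein SLITRK4 (0.913, 0.803 within groups), PPIL2 (0.898) and KIAA1377 (0.897). The r of PPIL2 within groups was 0.199, so its likeness to SLC12A3 lay mostly in the group means. At 300 ng/kg against vehicle GRHL3 and ANXA8 stood at 2.47 ± 0.61 and 3.35 ± 0.88, each with 1 vehicle array well above background, and LAMB2 stood at -0.78 ± 0.34 (log2 ± limma's SE, 3 arrays per group). Without scaling LAMB2 stood at 0.32, where the median of all probes stood at 1.10.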

How the data were processed

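Total RNA from 9 prostates, 0.5 ug each, was labelled with Cy3 and hybridised to 9 single-colour arrays, per the labels. The arrays were scanned and read with Agilent Feature Extraction 9.5.1.1, per the file headers (9.5 per the submitters' processing notes). The processed signal in the deposited array files is a linear intensity with the background taken off and with no normalization between arrays. The authors' deposited table states the size of each fold as a ratio, with a separate direction, and holds group means as log2 values. How that table was normalised is not stated, and 9 columns with flags per sample were left aside.

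Here the signal of a probe is the mean of its 2 spots, without outlier spots, divided by the 75th percentile of its array. Values under 5 units of the dimmest array were set to that floor before log2 was taken. The 9 arrays were fitted together in limma 3.58.1 with R 4.3.3, using statmod 1.5.0 for the random block, with group as the only term. Tested were the 15160 probes with both spots well above background on every array of some group, and 5057 were not tested. The fit had 6 residual and 2.99 prior degrees of freedom, and a call needed a 2-sided Benjamini-Hochberg adjusted p under 0.05. Nothing says whether offspring shared a dam, so the errors measure only the spread between these animals. With 3 arrays per group, whose number limits the precision, the residual SD of a probe had a median of 0.400. No spot of the 7 probes was an outlier or saturated.

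Gene names come from the authors' table, mostly from human transcripts; 1370 of its 1502 probes carry one. No coordinates or sequences are given. The genes named are the 5, every tested gene of the ion transport lists, cell type markers and the 3 genes most correlated with each probe. Of the lists, 1 gene is not reported here and was left out of the list counts. The 5 genes and the lists were chosen with earlier results of these data known. The fit was tested on simulated data. Alternatives were normexp (on the median spot signal, offset 50), quantile and median scaling, no filter, probes above background on all 9 arrays, slide as a fixed or random block, single slides, a replicate block, only the 2 groups compared, each array left out, outlier spots kept and a floor of 1 unit; no scaling, a brightness covariate and the counts of other ion transport genes under each setting were added after seeing the data.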

Additional observations from a re-analysis of the deposited data

How the results depend on the processing

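The number of probes limma called at an adjusted p under 0.05 changed from 0 under few settings. Between the doses it was 1 with quantile scaling, 3 with median scaling, 2 with slide as a fixed block and 1 with the replicate block, and at 30 ng/kg against vehicle it was 6 with slide as a fixed block. With 1 array left out it ranged from 0 to 1 at 30 ng/kg against vehicle (1 without replicate 2 of 30 ng/kg), from 0 to 271 at 300 ng/kg against vehicle (271 without replicate 2 of 300 ng/kg) and from 0 to 774 between the doses (774 when replicate 2 of the low dose was left out, 155 for replicate 2 of the high dose and 1 for vehicle replicate 1). The replicate numbers did not pair the samples: same-numbered deviations correlated at -0.26 to 0.54, those of different numbers at -0.36 to 0.29, and in this balanced design a replicate block cannot change a difference of group means.

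Of the alternative values of the 7 probes, 441 kept their size within 1 residual SD, 27 moved further and 5 changed sides from a difference larger than its SE. Those 5 were SLC12A3 at 30 ng/kg (0.24) and probe 1 of CACNA1G between the doses (-0.26) with normexp, and, without scaling, TRPM4 at 300 ng/kg against vehicle (0.10), ATP2B3 between the doses (0.52) and SLC12A3 between the doses (0.41). Relative to the median of all probes, 1.10 against vehicle and 1.58 between the doses, those without scaling stood at -1.00, -1.06 and -1.17. Taking that median off nearly restores the scaling, so these values are close to the scaled ones by construction. Another 8 values crossed 0 from a difference within its SE, all of CACNA1G at 30 ng/kg: probe 1 stood at 0.79 with normexp and 0.03 without vehicle replicate 3, and probes 2 and 3 at -0.40 each without scaling and from -0.17 to -0.12 without vehicle replicate 1 or replicate 1 of 30 ng/kg. With slide as a fixed block KCNK1 at 300 ng/kg stood at 1.52. No slide held vehicle and 300 ng/kg, so that comparison has no single-slide value, and probe 1 of CACNA1G has none with the filter on all 9 arrays, because it was dim on 5 of them.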
